A study of Rattus norvegicus with 15 samples.

Results

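The 6 genes described here lie on rat chromosome 17 between positions 38710432 and 39575720 of the Rnor6.0 assembly, an interval of 865289 bases proposed to be the placental prolactin-family locus. They are the 6 of the 17 annotated genes in that interval, and of 32552 in the whole table, chosen by their counts, namely 0 in every control and every H2O2 sample and 1 or more in each of the 3 samples of unmodified mitochondria or in each of the 3 of MitoCoat. The same count rule, applied to all chromosomes, selected 55 genes, so that 49 lay elsewhere. Because the members were selected on these counts, the presence of these 6 genes after mitochondria and their absence without them is a description of how they were chosen, not a finding.

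The study asked whether mitochondria, coated mitochondria or their RNA change the state of oxidatively injured cells. Primary cortical astrocytes of newborn Sprague Dawley rats were sequenced in 5 groups of 3 samples. Control wells received vehicle, and the other 4 groups received 100 µM H2O2 for 30 min. At 24 h, 3 of the H2O2-exposed groups were given unmodified mitochondria, MitoCoat or MitoCoat–mRNA, and RNA was taken 6 h later. The mitochondria-enriched fractions came from cryopreserved rat placenta. MitoCoat is the same material coated with the cationic and fusogenic lipids DOTAP and DOPE, and MitoCoat–mRNA is RNA extracted from that material and encapsulated in these lipids, without the organelle. The sample descriptions speak of RNA from mitochondria-enriched fractions, and RNA of the treated astrocytes, as the study describes it, was assumed here. The study speaks of biological replicates without saying whether the 3 samples of a group came from separate cultures or animals, so p-values measure the spread between these samples, and added RNA cannot be told apart from RNA made by the recipient cells in these counts, nor the number of cells that hold a transcript from its amount per cell. Whether the cultures held other cells was not checked, since cell type markers could not be matched to the identifiers.

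In rodents, the prolactin family is a run of neighbouring genes that arose by duplication. Prolactin itself is the hormone of pituitary lactotrophs, whereas most of its paralogs are made by trophoblast and decidual cells of the placenta during pregnancy. The placental lactogens among them act on the prolactin receptor, which signals through JAK2 and STAT5.

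The identity of the locus could be checked only in part. The files give Ensembl identifiers without symbols, and 0 of the 32552 identifiers matched the RefSeq gene table at hand, which is of the later GRCr8 assembly. In that table, all 28 genes with a prolactin-family symbol lie on chromosome 17, within a run of 41 genes of which 13 have another kind of name. The lengths of 18 gene models or exon blocks of the interval were set beside those of the 41 genes. Only 5 of the 18 came within 10 bases of exactly 1 gene of the run, 3 of these matches being family genes, and the 5 matches stood in rising order along it. Another 11 came near none and 2 near more than 1, so no symbol was given to any gene. The 6 genes are called by their identifiers below, and these lengths alone do not establish their membership of the prolactin family.

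Of the 6 genes, 5 had compact models with 5 or 6 exons after merging overlapping ones. ENSRNOG00000016436 lies at chr17:38710432-38718317 on the minus strand with 777 bases of exon. ENSRNOG00000016463 is at chr17:38900412-38906503, also on the minus strand, with 929 bases of exon. ENSRNOG00000043237 (chr17:39455908-39462629, 564 exon bases) and ENSRNOG00000016933 (chr17:39509516-39515412, 1072 exon bases) are on the plus strand, and ENSRNOG00000017048 (chr17:39563387-39575720, 871 exon bases) is on the minus strand.

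ENSRNOG00000016871 was the exception. Its model, on the plus strand at chr17:39188311-39463715, spanned 275405 bases and held 14 merged exons with 2314 exon bases. They fell into 2 blocks of 6 exons, with spans of 6089 and 6202 bases, and 2 single exons far from them. Each block was about as long as a whole model of the other members, and the counts do not show from which block the reads came. ENSRNOG00000043237 and 2 further genes of the interval lie inside its span but share 0 exon bases with it.

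Reads on the 6 genes were few in relation to the libraries, whose total counts ranged from 35315654 to 46778663 over the 15 samples. Low counts in all samples were mostly even numbers, 96.0% of those between 1 and 19, so that 1 fragment generally counted as 2. The limit for a count of 0 was therefore set at 6 counts, or 3 read pairs, and covers counting error only. Over the 6 control and H2O2 samples together, which held 244911067 counts, 0 counts allow a level of up to 0.0245 CPM (counts per 1000000 counts of the library).

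ENSRNOG00000016871 held the most reads of the 6 genes. It had 142, 105 and 20 counts with unmodified mitochondria, 561, 344 and 64 with MitoCoat, and 0 in each MitoCoat–mRNA sample. In both recipient groups replicate 3 was far below the other samples, and the lowest MitoCoat value lay below the 2 higher ones with unmodified mitochondria.

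ENSRNOG00000016436 came next by count. It had 74, 68 and 14 counts with unmodified mitochondria, 253, 197 and 24 with MitoCoat, and 0, 2 and 0 with MitoCoat–mRNA. The recipient groups overlapped again through replicate 3 of MitoCoat.

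ENSRNOG00000016933 had 30, 33 and 14 counts with unmodified mitochondria, 188, 116 and 26 with MitoCoat, and 0, 2 and 0 with MitoCoat–mRNA. ENSRNOG00000017048 had 36, 40 and 12 counts with unmodified mitochondria, 145, 86 and 10 with MitoCoat, and 0 in every MitoCoat–mRNA sample. For the latter gene, replicate 3 was about the same in both recipient groups, while replicates 1 and 2 were higher with MitoCoat.

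The remaining 2 genes were near the limit of detection in at least 1 group. ENSRNOG00000043237 had 2, 0 and 0 counts with unmodified mitochondria and 37, 32 and 10 with MitoCoat, and was at 0 with MitoCoat–mRNA. It entered by way of the MitoCoat samples alone. ENSRNOG00000016463 had 18, 4 and 0 counts with unmodified mitochondria, 6, 26 and 4 with MitoCoat, and 0, 0 and 2 with MitoCoat–mRNA. It showed no common order between the groups, and several of its values were at or under the limit. These were the members closest to the edge of the rule.

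**Figure D1:**
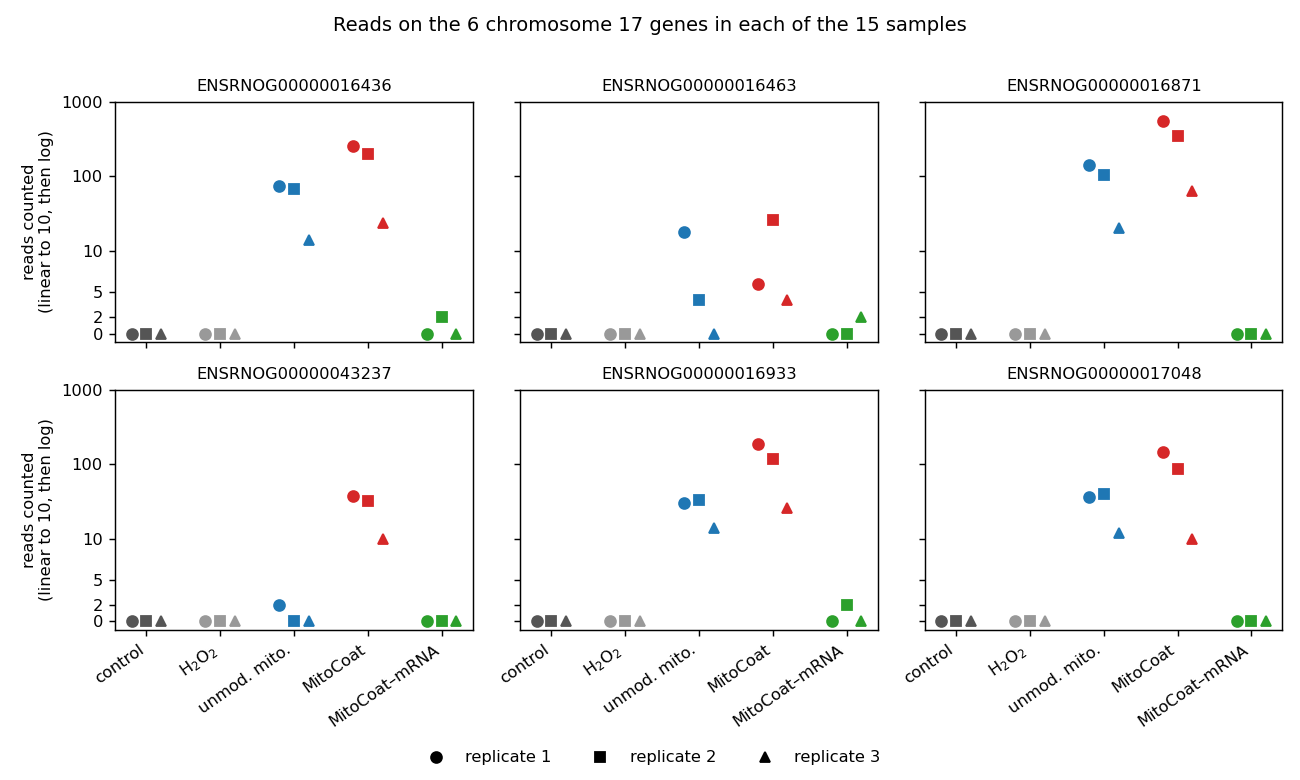
Reads counted on each of the 6 genes (vertical axis, linear up to 10 and logarithmic above) in the 5 groups of 3 samples (horizontal axis), with a circle, square and triangle for replicates 1, 2 and 3. Control and H2O2 samples are at 0 by the rule, MitoCoat–mRNA samples hold at most 2 counts per gene, and replicate 3 (triangle) is the lowest recipient sample for ENSRNOG00000016871, with 20 counts with unmodified mitochondria and 64 with MitoCoat.

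Together the 6 genes had 302, 250 and 60 counts with unmodified mitochondria, 1190, 801 and 138 with MitoCoat, and 0, 4 and 2 with MitoCoat–mRNA. With library totals scaled by TMM over all 15 samples, the summed level was 4.93 ± 3.34 CPM (SD, n = 3) with unmodified mitochondria and 16.9 ± 12.3 CPM (SD, n = 3) with MitoCoat. With MitoCoat–mRNA it was 0.0458 ± 0.0458 CPM (SD, n = 3), and each of these samples was under the limit of 6 counts, so a level different from that of H2O2 alone was not detectable at this depth.

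Against the H2O2 samples, only lower bounds of a fold change can be given, taken here from the mean CPM of the recipient group over a floor of 6 counts per H2O2 library. By group means, the summed level was at least 32.4-fold higher with unmodified mitochondria and at least 111-fold higher with MitoCoat. Without replicate 1 of the recipient group these bounds fell to 23.2-fold and 75.8-fold. For the 4 genes seen in all 3 samples with unmodified mitochondria the bounds ran from 4.002-fold (ENSRNOG00000016933) to 14.2-fold (ENSRNOG00000016871). Without mitochondria replicate 1 these 2 bounds were 3.48-fold and 9.36-fold. With MitoCoat the bounds ran over 5 of the 6 genes from 4.14-fold (ENSRNOG00000043237) to 50.3-fold (ENSRNOG00000016871), the latter being 33.0-fold without MitoCoat replicate 1. No bound holds for ENSRNOG00000016463, whose mean with MitoCoat rested on replicate 2 (26 counts) and without it, at 0.122 CPM, was under the floor of 0.154 CPM. In edgeR's quasi-likelihood fits over all genes, 4 of the 6 genes passed the filter on low counts for unmodified mitochondria against H2O2 and all 4 were called higher at an adjusted p under 0.05, where 1.86% of the 15613 genes tested were called higher. For MitoCoat against H2O2, 5 passed and all 5 were called higher, where the share over the 15724 genes tested was 1.47%. As the rule used these same contrasts, nothing is read from these counts.

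MitoCoat–mRNA was not part of the rule. Of the 6 genes, 3 had 0 counts in all 3 MitoCoat–mRNA samples and the other 3 had 2 counts in 1 sample each. None of the 6 passed the filter on low counts against H2O2, and 0 of the 15506 genes tested had an adjusted p under 0.05 (edgeR; 463 had an unadjusted p under 0.05, and DESeq2's Wald test called 0). Without the filter, 3 of the 6 genes could be tested and 0 were called.

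The map of the interval places these levels along the chromosome. Among the 4 members with the most counts, ENSRNOG00000016436 stands at the start of the interval. The 2 exon blocks of ENSRNOG00000016871 (666 to 707 kb from the start), ENSRNOG00000016933 (799 to 805 kb) and ENSRNOG00000017048 (853 to 865 kb) lie in its later part. The members are on both strands, 3 on each.

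**Figure D2:**
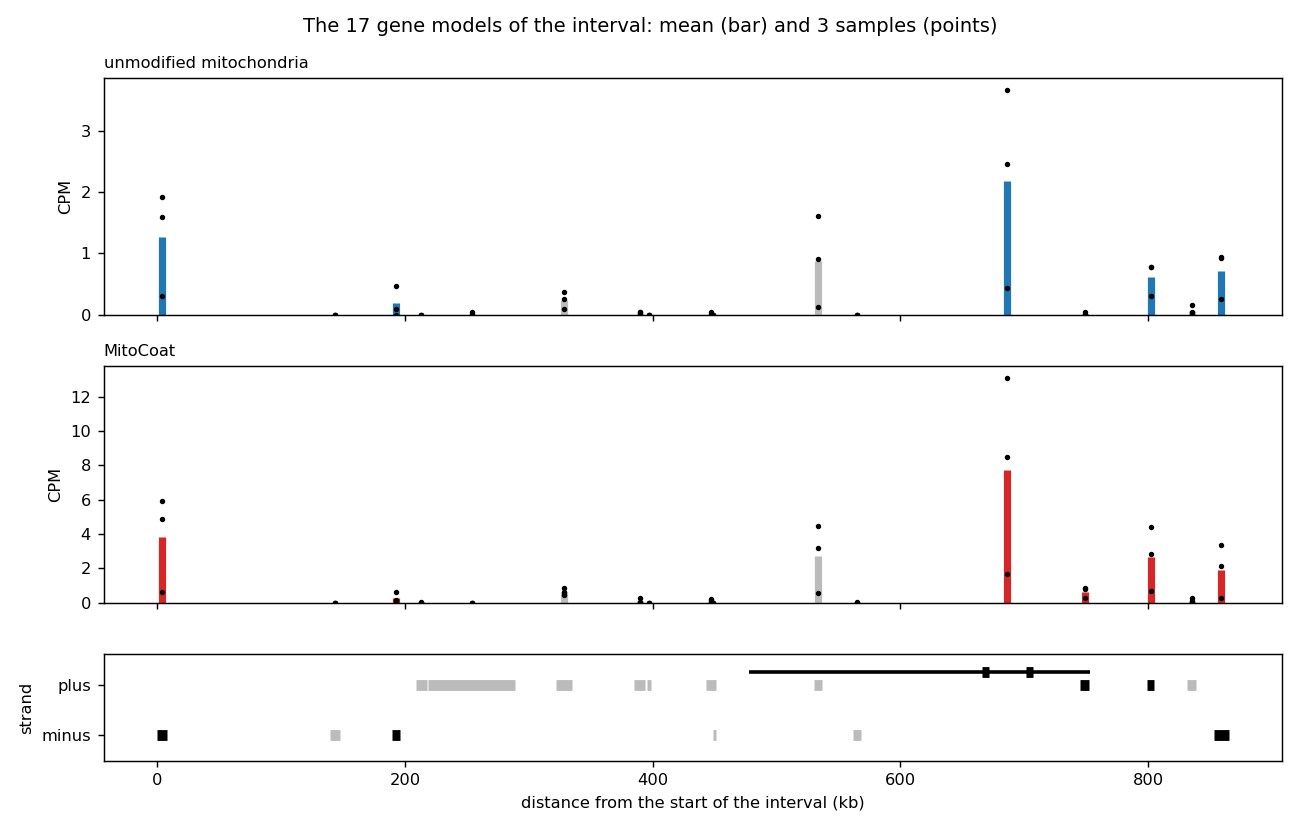
CPM of the 17 gene models by their distance from the start of the interval in kb, with unmodified mitochondria (top) and MitoCoat (middle; the vertical scales differ), where bars are means, points the 3 samples, coloured bars the 6 members and grey bars the other 11 genes. The bottom panel gives each model's extent and strand, members in black; the thin line is the 275405-base model ENSRNOG00000016871 with its 2 exon blocks thickened, plotted above at the middle of these blocks and the highest bar in both groups.

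Among the other 11 genes of the interval, ENSRNOG00000024843 and ENSRNOG00000016616 held 471 and 147 counts over the 15 samples, more than the 2 members with the fewest (81 and 60), and each of the remaining 9 held fewer than any member. ENSRNOG00000024843 (chr17:39241133-39246940, plus strand), which lies inside the span of ENSRNOG00000016871, had 62, 39 and 6 counts with unmodified mitochondria, 191, 129 and 22 with MitoCoat and 0, 8 and 0 with MitoCoat–mRNA. It fell just outside the rule, because it also had 2 counts in control replicate 3 and 0, 10 and 2 counts in the H2O2 samples. Replicate 3 was the lowest of each recipient group. In the fits over all genes its log2 fold change against H2O2 was 4.68 (SE 0.98, adjusted p 0.0350, edgeR) with MitoCoat, and the adjusted p was 0.0162 to 0.146 with 1 sample left out, under 0.05 in 2 of 6 such fits. With unmodified mitochondria the log2 fold change was 3.04 (SE 1.04, adjusted p 0.193), and 2.93 (SE 0.78, adjusted p 0.0159) with the replicate number as a block, since the numbers paired these samples. Without H2O2 replicate 2, which held 10 counts of this gene, the log2 fold changes were 6.55 with MitoCoat and 4.91 with unmodified mitochondria. DESeq2's Wald test gave 3.10 (adjusted p 0.0322), and with 1 sample left out edgeR's adjusted p was 0.101 to 0.543, under 0.05 in none of 6 fits.

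ENSRNOG00000016616 (chr17:39032661-39045326, plus strand) had counts in every H2O2-exposed sample. It had 2, 4 and 4 counts after H2O2 alone, 10, 16 and 4 with unmodified mitochondria, 27, 34 and 18 with MitoCoat and 8, 14 and 6 with MitoCoat–mRNA. It was the gene of the interval with the most MitoCoat–mRNA counts, 28 in all, and was at 0 in the 3 control samples. With MitoCoat against H2O2 its log2 fold change was 2.84 (SE 0.60, adjusted p 0.0347, edgeR), but the adjusted p was 0.0506 to 0.215 with 1 sample left out, under 0.05 in none of 6 such fits. It did not pass the filter for unmodified mitochondria or MitoCoat–mRNA against H2O2. Both calls concern genes outside the rule, where 1.47% of all genes tested were called higher with MitoCoat.

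Of the remaining 9 genes, 5 had counts in recipients only but not in all 3 samples of a group, and 2 were at 0 in all 15 samples. The nearest of these to the rule were ENSRNOG00000017007 (chr17:39542096-39549082), with 6, 0 and 2 counts with unmodified mitochondria and 4, 10 and 0 with MitoCoat, and ENSRNOG00000016742 (chr17:39153465-39161641), with 2, 0 and 0 against 10, 6 and 0. ENSRNOG00000047649, ENSRNOG00000016510 and ENSRNOG00000055384 had 2 counts in 1 recipient sample each. ENSRNOG00000029126 had 2 counts in H2O2 replicate 2 and at most 11 in a recipient, and ENSRNOG00000051206 had 4 counts in H2O2 replicate 1 and none elsewhere.

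The genes beside the interval, which the rule did not use, were nearly silent. Within 1000000 bases of its ends lie 9 genes, of which 3 were at 0 in all samples and none exceeded 10 counts in any. Among them ENSRNOG00000016307 had 0, 4 and 0 counts with unmodified mitochondria and 10, 4 and 2 with MitoCoat, with 2 in 1 H2O2 sample. None of the 9 passed the filter, so 0 were tested against H2O2. The nearest genes with a mean of at least 1 CPM were ENSRNOG00000058289, 1092524 bases before the interval, and ENSRNOG00000017545, 2488656 bases after it. ENSRNOG00000058289 had 13.6 ± 2.77 CPM (SD, n = 3) after H2O2, 14.9 ± 0.338 with unmodified mitochondria and 18.4 ± 1.21 with MitoCoat. ENSRNOG00000017545 had 9.46 ± 0.679, 10.2 ± 0.950 and 11.8 ± 0.734 CPM in the same groups. Neither was called against H2O2.

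Per length of exon, taken over each whole model, the order of the genes differed from that by count. In RPKM (reads per kilobase of exon and per 1000000 counts), the level of ENSRNOG00000016436 was 1.63 ± 1.10 (SD, n = 3) with unmodified mitochondria and 4.89 ± 3.60 with MitoCoat, and this gene was the highest of the 6 in 6 of 6 recipient samples. ENSRNOG00000016871 followed in the means with 0.945 ± 0.709 and 3.35 ± 2.48 on the same scale. The means of neighbours in this order lay within the spread between samples. Within samples, the ratio of ENSRNOG00000016436 to ENSRNOG00000016871 per length was 1.55, 1.93 and 2.08 with unmodified mitochondria and 1.34, 1.71 and 1.12 with MitoCoat, above 1 in 6 of 6. This order depends on the 2314 exon bases assigned to ENSRNOG00000016871. If all its reads came from the block with 914 exon bases it would be above ENSRNOG00000016436 in 6 of 6 samples, and if all came from the block with 1249 in 4 of 6.

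Per length, ENSRNOG00000017048 stood above ENSRNOG00000016933 with unmodified mitochondria and below it with MitoCoat, with ratios close to 1 in several samples. With unmodified mitochondria the levels were 0.813 ± 0.449 and 0.575 ± 0.255 RPKM, and ENSRNOG00000017048 was the higher in 3 of 3 samples, with ratios of 1.48, 1.49 and 1.05. With MitoCoat they were 2.21 ± 1.80 and 2.47 ± 1.74, and the ratios were 0.949, 0.912 and 0.473. The difference between the groups in this ratio was not tested, and in replicate 3 it rested on 12 and 14 counts with unmodified mitochondria and on 10 and 26 with MitoCoat. In replicates 1 and 2 with unmodified mitochondria it rested on 36 against 30 and 40 against 33 counts. ENSRNOG00000043237 and ENSRNOG00000016463 were lowest, with 1.13 ± 0.582 and 0.318 ± 0.323 with MitoCoat.

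As a share of the reads on the 6 genes, ENSRNOG00000016871 took 33.3% to 47.02% in the samples with unmodified mitochondria and 42.9% to 47.1% in those with MitoCoat. The share of ENSRNOG00000016436 was 23.3% to 27.2% and 17.4% to 24.6%. The share of ENSRNOG00000043237 was 0.662%, 0% and 0% with unmodified mitochondria, and 3.11%, 3.995% and 7.25% with MitoCoat. As this gene met the rule through MitoCoat alone, its shares are a description and are not compared between the groups. In unmodified mitochondria replicate 3, with 60 counts in all, the exact 95% binomial interval, computed on read pairs and covering counting error only, reached 11.6%.

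**Figure D3:**
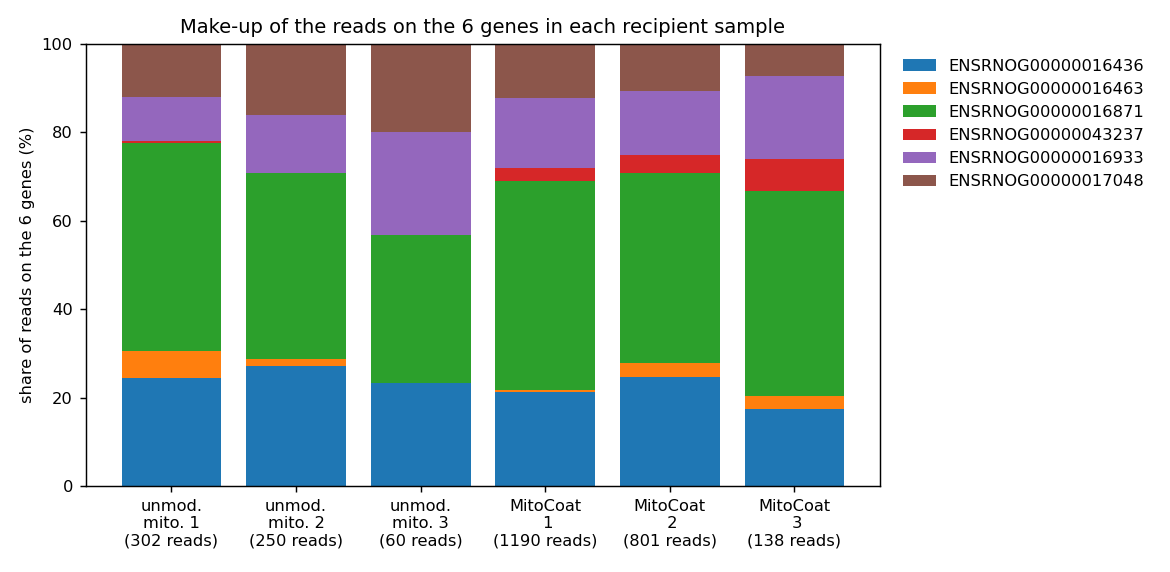
Share (%) of each of the 6 genes in the reads they hold together, one stacked bar per recipient sample, with the number of reads under each bar. ENSRNOG00000016871 (green) is the largest share in all 6 bars, at 33.3% to 47.1%, and ENSRNOG00000043237 (red) is visible in the 3 MitoCoat bars (3.11% to 7.25%) and only in the first of the unmodified ones (0.662%).

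The comparison of MitoCoat with unmodified mitochondria asks what the coat adds to the same organelle material. Both groups enter the rule, as alternatives, so this difference is not the contrast that chose the genes, but ENSRNOG00000043237 and ENSRNOG00000016463 entered through MitoCoat alone. The levels were therefore summed over the 4 genes seen in all samples of both groups, which had 282, 246 and 60 counts with unmodified mitochondria and 1147, 743 and 124 with MitoCoat. Matched by replicate number, their summed CPM was 3.67, 3.18 and 2.52 times as high with MitoCoat by the total counts of the libraries. After TMM scaling over all 15 samples the mean log2 ratio over the 3 pairs was 1.62 ± 0.29 (SD, n = 3). With TMM scaling of these 6 samples alone, ENSRNOG00000016436, ENSRNOG00000016871 and ENSRNOG00000016933 were higher with MitoCoat in 3 of 3 pairs, a pattern found in 15.3% of all genes tested. For ENSRNOG00000017048 the scaling decided the count. Its ratios were 3.63, 2.28 and 0.996 after TMM scaling of the 6 samples (2 of 3 pairs higher), and by total counts 3.63, 2.27 and 1.02 (3 of 3). With TMM scaling over all 15 samples it was also higher in 3 of 3. The spread within each group was nevertheless wide, since the mean of replicates 1 and 2 was 5.08 times replicate 3 with unmodified mitochondria and 6.96 times with MitoCoat. By total counts, replicate 3 was the deepest library of the unmodified group (46672179) and the shallowest of the MitoCoat group (38270874). Why replicate 3 was lower was not tested.

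Without regard to replicate numbers, none of the 6 genes was called. Of the 15731 genes tested by edgeR's quasi-likelihood test, 0 had an adjusted p under 0.05 (779 had an unadjusted p under 0.05, 4.95%), and DESeq2's Wald test called 3 genes, none of them a member. Of the 5 members that passed the filter, ENSRNOG00000043237 met the count rule only through MitoCoat, where it is high, so its 2 counts in all with unmodified mitochondria and 79 with MitoCoat are given as a description. The other 4 had log2 fold changes of 1.45 to 2.11, each with an adjusted p of 0.889, and 2 of the 4 had an unadjusted p under 0.05. With 1 sample left out the fold changes ran from 1.12 to 2.11 for ENSRNOG00000016436 and from 1.23 to 2.44 for ENSRNOG00000016871. The ranges were 1.53 to 2.58 for ENSRNOG00000016933 and 0.768 to 1.98 for ENSRNOG00000017048. ENSRNOG00000016871 had a log2 fold change of 1.84 (SE 0.75, 95% interval 0.17 to 3.51), and ENSRNOG00000016933 one of 2.11 (SE 0.63, interval 0.71 to 3.51).

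Same-numbered samples of these groups deviated together, and the replicate number was therefore also fitted as a block. The fold changes stayed similar and their errors narrowed. ENSRNOG00000016871 then had a log2 fold change of 1.84 (SE 0.18, interval 1.44 to 2.24) with an adjusted p of 0.00513 (edgeR with the block), higher in 3 of 3 pairs. Over all 15731 genes, 5 were called in this fit, 0.0318% of those tested, and all were higher with MitoCoat. ENSRNOG00000016436, ENSRNOG00000016933 and ENSRNOG00000017048 had adjusted p-values of 0.217 to 0.446. An unadjusted p under 0.05 was found for each of the 4 members considered, and for 8.91% of all genes tested. The log2 fold changes with the block were 1.498 (SE 0.26) for ENSRNOG00000016436, 1.93 (SE 0.35) for ENSRNOG00000016933 and 1.19 (SE 0.41) for ENSRNOG00000017048. The 2 tested neighbours within the interval had values in the same range with the block, 1.72 (SE 0.30) for ENSRNOG00000024843 and 1.52 (SE 0.55) for ENSRNOG00000016616, with adjusted p-values of 0.220 and 0.460.

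**Figure D4:**
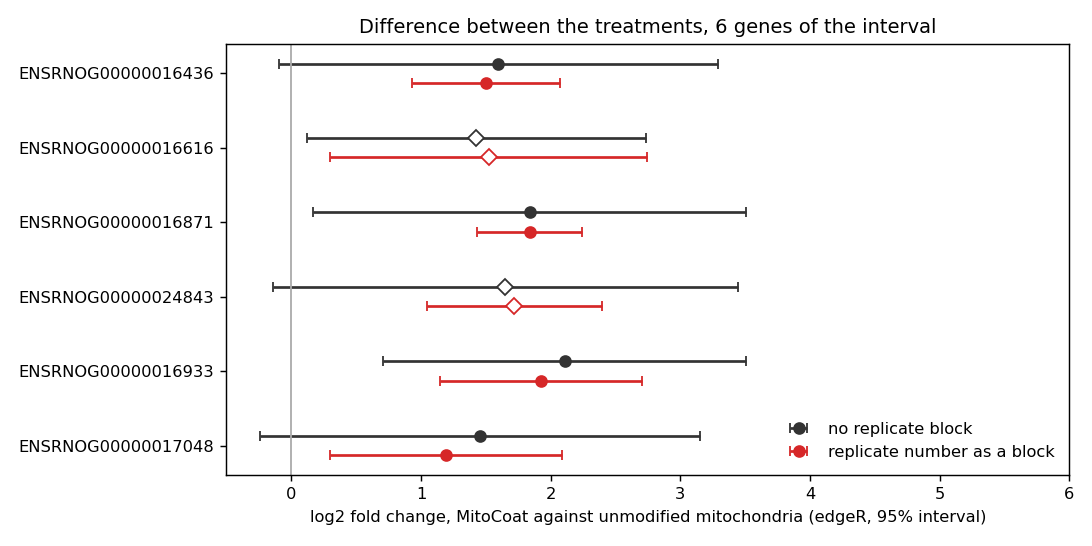
Log2 fold change of MitoCoat against unmodified mitochondria (horizontal axis; points with 95% intervals from edgeR) for 6 genes of the interval that passed the filter (ENSRNOG00000043237, which met the count rule through MitoCoat alone, is left out), without the replicate number (dark) and with it as a block (red); filled circles are members and open diamonds other genes. All 12 points lie above 0, and the interval of ENSRNOG00000016871 narrows from 0.17 to 3.51 without the block to 1.44 to 2.24 with it.

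The 49 genes elsewhere in the genome that met the same count rule together had 706, 787 and 266 counts with unmodified mitochondria, 2557, 1792 and 487 with MitoCoat, and 22, 20 and 16 with MitoCoat–mRNA. Of the 49, 15 were seen in all samples of both groups, and the MitoCoat-to-unmodified ratios of their summed CPM, matched by number, were 3.46, 2.52 and 2.48. The 6 genes of the interval made up 18.4% to 31.8% of the reads on all 55 genes in the recipient samples. Replicate 3 was again lowest in both groups, with the mean of replicates 1 and 2 of these 15 genes at 3.69 times replicate 3 with unmodified mitochondria and 4.45 times with MitoCoat.

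The genes whose log2(CPM + 0.1) over the 15 samples was most like that of the summed members were sought among 18678 genes with at least 30 counts in total. ENSRNOG00000038101 (chr1:79680194-79708835) had the highest Pearson correlation, 0.997. It had 220, 195 and 40 counts with unmodified mitochondria, 777, 505 and 114 with MitoCoat, and 2 in 1 control sample. ENSRNOG00000039975 (chr17:4165041-4167411) was as close, at 0.997, with 240, 250 and 50 counts against 1103, 664 and 146. Both repeated the low replicate 3.

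ENSRNOG00000017185 (chr17:42771526-42777186; 0.995), ENSRNOG00000017620 (chr1:79396578-79402814; 0.988) and ENSRNOG00000042158 (chr1:79474809-79481865; 0.987) followed. ENSRNOG00000017185 had 72, 62 and 16 counts with unmodified mitochondria and 156, 148 and 48 with MitoCoat. The 3 of these 5 genes on chromosome 1 had start positions from 79396578 to 79680194. All of these 5 genes except ENSRNOG00000038101 met the same count rule as the members, so their likeness was in large part set by that rule. These correlations describe 15 samples of which 9, without added mitochondria, hold at most 2 counts of each of these 5 genes, and the samples share their depth and, within a group, their treatment.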

How the data were processed

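RNA of 15 samples (5 groups of 3, grouped by their GEO titles) was analysed. Per the labels and the study's methods, reads were trimmed by the authors (Trimmomatic 0.36), mapped to the Rnor6.0 assembly (STAR 2.5.2b) and counted on exons (featureCounts of Subread 1.5.2); the deposited values are raw counts per gene, 1 file per sample, with no normalization. A further file was identical to that of unmodified mitochondria replicate 2 and was not used. No 2 samples were copies of each other (within groups, the variance of counts was 5.62 to 32.1 times the counting error over 15 pairs). Low counts were nearly all even, and the binomial intervals and the floors were therefore computed on pairs of reads. The filters, tests and intervals of edgeR used the counts as they were given, except where halved counts are named.

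Members were found from the counts and the coordinates of the gene models. The members, the lists and the tests were chosen with earlier results of these data known. For each comparison, the 6 samples were filtered with filterByExpr, scaled by TMM and tested with the two-sided quasi-likelihood F test of edgeR 4.0.16 in R 4.3.3, with Benjamini-Hochberg adjustment over all genes tested and calls at an adjusted p under 0.05. No p is given for members against H2O2 with either kind of mitochondria, nor for their sum. An exact permutation test had been planned for the sum, and only its difference is reported. On simulated data with 200 genes changed 4-fold, the test recovered 175 for MitoCoat against unmodified mitochondria, over 15731 genes, and 166 for unmodified mitochondria against H2O2, over 15613. It also called 12 and 13 unchanged genes. The changed genes were drawn at random from all genes tested, without pairing of samples. This recovery is therefore not a measure of power for the 6 members, which are low and vary widely between samples. Alternatives were DESeq2 1.42.0 (Wald test), RLE factors, a filter of 1 count in total, all 15 samples in one fit, the replicate number as a block and each sample left out. Counts halved to read pairs, and replicate 3 of both groups left out, are alternatives chosen after seeing the data, as are the paired fits with halved counts or 1 pair left out and the sum over the members seen in all samples of both groups.

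Whether replicate numbers pair the samples was judged from how deviations from group means correlated across 16631 genes, which are not independent replicates. Every same-number correlation exceeded 0.1 between MitoCoat and unmodified mitochondria (0.173 to 0.219), between unmodified mitochondria and H2O2, and between MitoCoat–mRNA and H2O2, but not between MitoCoat and H2O2 (lowest −0.0637). The labels do not say what the numbers share. The genes named are all members, all other genes of the interval with a count, the nearest gene on each side with a mean of at least 1 CPM, and the 5 genes elsewhere most like the summed members; other genes were named after their values were seen. The prolactin receptor and JAK-STAT list, the prolactin-family list and the cell type markers were not analysed here, since no symbol could be matched. Plots were made in Python 3.11.15 (matplotlib 3.10.9).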

Additional observations from a re-analysis of the deposited data

Results flagged for a closer look

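The difference between MitoCoat and unmodified mitochondria for ENSRNOG00000016871 was picked out because its test passed in the fit that pairs samples by replicate number and not in the fit without pairing. In the paired fit (replicate number as a block) the log2 fold change was 1.84 with an adjusted p of 0.00513 (edgeR), and without it the adjusted p was 0.889 at the same fold change. The counts were 142, 105 and 20 with unmodified mitochondria and 561, 344 and 64 with MitoCoat, so that the ratio of CPM was 3.56, 3.45 and 3.90 in the 3 pairs. Leaving out either replicate 1, 2 or 3 of both groups in the paired fit gave log2 fold changes of 1.86, 1.87 and 1.82. In the unpaired fits with 1 sample left out the log2 fold change ran from 1.23 to 2.44. With counts halved to read pairs the paired value was 1.83 (adjusted p 0.00719, edgeR). Over the 17 alternatives run for this gene the adjusted p ran from 3.09e-17 (paired, without replicate 3 of both groups, edgeR) to 0.99992 (unpaired, DESeq2), and it was under 0.05 in the 5 paired fits alone. What the samples of one number share was not tested.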

How the results depend on the processing

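The number of members stayed within 1.5 times of 6 under all alternatives run except 1. It was 3 when MitoCoat–mRNA was also required to be at 0, and 6 to 8 when a recipient sample was left out. Against H2O2, the number of members called was 4 with unmodified mitochondria and 5 with MitoCoat. With counts halved to read pairs it was 0 and 3, as none of the 6 and 3 of them passed the filter. With 1 sample left out it was 1 to 4 with unmodified mitochondria (1 without mitochondria replicate 1) and 2 to 5 with MitoCoat. The latter was 2 without H2O2 replicate 1, and 3 without H2O2 replicate 3, MitoCoat replicate 1 or MitoCoat replicate 2. Over all genes, those called higher numbered 290 with unmodified mitochondria (137 to 643 over the alternatives, the most with the block) and 231 with MitoCoat (99 to 439). With MitoCoat–mRNA against H2O2, members could be tested in 3 of the fits alone (3 members by DESeq2 and without the filter, 5 with all 15 samples in one fit), where 0 had an unadjusted p under 0.05. Flanking genes could be tested against H2O2 only by DESeq2 and without the filter, 4 or 5 at a time, so nothing is read from the other fits about them.

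For MitoCoat against unmodified mitochondria, the number of members called was 0 in each fit without the pairing, including those with a sample left out. With the replicate block it was 1, also 1 with counts halved. It was 3, 1 and 5 in paired fits without replicate 1, 2 or 3 of both groups, in which only 1 residual degree of freedom per gene remains. ENSRNOG00000043237 was among the 3 and the 5. The log2 fold changes of ENSRNOG00000016436, ENSRNOG00000016871, ENSRNOG00000016933 and ENSRNOG00000017048 stayed above 0 in every alternative run. The difference in summed level over the 6 members, 12.0 CPM, includes 2 that met the count rule through MitoCoat alone, and was 11.3 CPM over the 4 seen in all samples of both groups. Over the 6 it was 12.0 CPM with pairing by replicate number, 6.47 CPM without ENSRNOG00000016871, and 6.70 to 18.7 CPM with 1 sample left out. The lowest of these was without MitoCoat replicate 1 and the highest without MitoCoat replicate 3. The block changed no other call of the members. Against H2O2 with MitoCoat, where the numbers did not pair the samples, the adjusted p of ENSRNOG00000016616 was 0.0520 with the block and 0.0347 without it (edgeR). The receptor and JAK-STAT list was not run. Depth limits all values under 6 counts, as in most MitoCoat–mRNA values here.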

Other observations

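In the fit of MitoCoat against unmodified mitochondria with the replicate number as a block, 5 genes were called, and ENSRNOG00000016871 was 1 of 3 that were almost absent without mitochondria. The other 2 were ENSRNOG00000039975 (log2 fold change 1.78, SE 0.16, adjusted p 0.00478, edgeR with the block) and ENSRNOG00000038101 (1.61, SE 0.15, adjusted p 0.00513), which are also the genes most like the summed members over the samples. ENSRNOG00000039975 met the same count rule as the members. The remaining 2 genes, ENSRNOG00000062158 and ENSRNOG00000029707, named here after their values were seen, had at least 4519 counts in every sample, with log2 fold changes of 0.76 and 0.66.

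ENSRNOG00000016616 was the gene of the interval with counts in the greatest number of samples. It was at 0 in 3 of 3 control samples and had 2 to 4 counts in each H2O2 sample and 6 to 14 in each MitoCoat–mRNA sample. The control and H2O2 values are below the limit of 6 counts per sample, those with MitoCoat–mRNA are 8, 14 and 6, and the gene did not pass the filter in the comparison of MitoCoat–mRNA with H2O2. In the fits that kept it, its log2 fold change there was 1.33 without the filter (adjusted p 0.928, edgeR), 1.33 with all 15 samples in one fit (adjusted p 0.999, edgeR) and 1.36 by DESeq2 (adjusted p 0.99985), and it was not called.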
